A study of Rattus norvegicus with 26 samples.

Results

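Lactate handling in soleus, a slow postural muscle of the hind leg, was followed through 5 transcripts: the lactate transporters Slc16a1 and Slc16a3, their membrane chaperone Bsg, and the lactate dehydrogenase subunits Ldha and Ldhb. They were chosen by gene symbol from the 34034 genes of the count table. All 5 had enough counts to enter the test, as did 10064 genes in all. Total RNA came from soleus of aged female rats of lines bred over 44 generations for high or low running capacity, called HCR and LCR. The 26 libraries, each treated as 1 animal, fall into running HCR (n = 5), running LCR (n = 5), sedentary HCR (n = 8) and sedentary LCR (n = 8). Runners lived in pairs in cages with a wheel for over 5 months, and sedentary rats had no wheel. Cage mates are not named in the labels, so the fits had no term for cage, and a cohort difference cannot be told apart from running. The age is given only as aged, and both lines are whole selected lines, so many loci differ between them.

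Lactate and pyruvate cross the plasma membrane with a proton through monocarboxylate transporters. In muscle, MCT1, the product of Slc16a1, is the form of oxidative fibres and is best known for taking lactate up, whereas MCT4, the product of Slc16a3, is the form of glycolytic fibres and is best known for letting it out. Both reach the membrane bound to basigin, the product of Bsg. Inside the cell, lactate dehydrogenase is a tetramer of M subunits from Ldha, prominent in glycolytic muscle, and H subunits from Ldhb, prominent in heart and oxidative muscle, so the balance of the subunits is often read beside the balance of the transporters.

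Averaged over activity, Slc16a3 and Bsg were lower in HCR than in LCR soleus, at 5.51-fold for Slc16a3 and 1.22-fold for Bsg in the fit. Slc16a1, Ldha and Ldhb did not pass the threshold in any comparison, an adjusted p under 0.05 by edgeR's quasi-likelihood test with adjustment over all 10064 genes. No difference between running and sedentary rats passed for any of the 5 genes. Levels are read counts scaled to library size, as CPM, and libraries were read near transcript 3' ends, so levels are compared between groups for the same gene and not between genes.

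Library totals ran from 1.10 to 2.52 megacounts, with means of 1.49 in running HCR, 1.70 in running LCR, 1.85 in sedentary HCR and 1.80 in sedentary LCR. The titles of HCR running 5 and LCR running 5 name the other line than their genotype, which was followed here. Ackr4, a chemokine receptor gene that differs between the lines, lay within the sedentary HCR range of 6.95 to 11.0 CPM in HCR running 5 and within the sedentary LCR range of 0 to 2.01 CPM in LCR running 5. Among 50 genes chosen after their values were seen, because sedentary libraries of the lines did not overlap in them, HCR running 5 lay nearer the sedentary HCR mean in 37 and LCR running 5 in 8. The other running libraries lay nearer that mean in 32 to 38 of the 50 genes in HCR and in 6 to 10 in LCR. HCR running 4 had 1.58 CPM of Ackr4, within the LCR range, and was nearer the sedentary HCR mean in 32 genes. Ackr4 itself did not overlap between the sedentary lines, so its check and that of the 50 genes are not independent.

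Promoter windows are shown for 4 of the 5 genes, to set 2 pairs side by side. Slc16a3 and Bsg passed as lower in HCR in the average over activity, and Slc16a1 and Ldha did not pass. Ldhb, which did not pass either, is given by its counts of matches alone. Windows run from 250 bases before to 50 after the annotated gene start in RefSeq on GRCr8, a later build than the mRatBN7.2 named for the counts, and the start need not be the one used in soleus. Capitals mark CACGTG, the E-box letters, found on either strand in 6.42% of 33469 promoters. The windows are Slc16a3 at chr10:106712078-106712377 on the plus strand and Bsg at chr7:10650956-10651255 on the minus strand. For Slc16a1, chr2:194812432-194812461 on the plus strand, and for Ldha, chr1:106507993-106508022 on the plus strand, only the 30 bases around the match are printed.
Slc16a3: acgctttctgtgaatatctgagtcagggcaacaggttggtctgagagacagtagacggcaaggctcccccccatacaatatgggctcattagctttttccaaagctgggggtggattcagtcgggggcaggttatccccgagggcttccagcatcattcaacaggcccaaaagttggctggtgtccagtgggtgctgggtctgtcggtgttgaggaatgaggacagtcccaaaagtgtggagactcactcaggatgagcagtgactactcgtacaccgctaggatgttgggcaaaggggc
Bsg: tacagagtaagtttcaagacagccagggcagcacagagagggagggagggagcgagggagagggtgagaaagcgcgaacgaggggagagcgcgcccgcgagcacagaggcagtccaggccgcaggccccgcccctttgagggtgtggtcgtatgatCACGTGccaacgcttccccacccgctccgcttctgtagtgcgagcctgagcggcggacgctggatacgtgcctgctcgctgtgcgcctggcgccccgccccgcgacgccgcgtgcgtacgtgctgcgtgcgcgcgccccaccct
Slc16a1: gcagcgcctagtCACGTGgcgggaaggggg
Ldha: tagcccagcctaCACGTGggttcccgcacg
The CACGTG lies 94 bases before the start in Bsg, 216 before it in Slc16a1 and 87 before it in Ldha, and these letters are not in the windows of Slc16a3 and Ldhb. ACGTG, which every CACGTG holds on both strands, occurs in 19.3% of promoters, at 4 places in Bsg, 3 in Slc16a1 and 3 in Ldha, and 0 in Slc16a3 and Ldhb. GGGCGG occurs in 33.1% of promoters, at 2 places in Bsg, 1 in Slc16a1, 3 in Ldha, 1 in Ldhb and 0 in Slc16a3. GCGTG occurs in 29.7% of promoters and was absent only from the Slc16a3 window among the 5, and AAGGTCA, in 4.61% of promoters, from all 5 windows. These are matches of letters and no binding was measured.

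Slc16a3 encodes MCT4, the exporter of glycolytic fibres. It had 1.10, 1.10, 3.41, 3.15 and 5.45 CPM in running HCR, against 7.19, 9.36, 50.5, 17.3 and 19.6 CPM in running LCR. Every running HCR library lay below every running LCR library, as 0.666% of all genes tested did in that direction. In the fit it was 7.88-fold lower in running HCR (log2 fold change -2.98, SE 0.70, adjusted p = 0.0467, edgeR), the 1 gene of the 5 to pass in runners, where 0.626% of all genes passed and 0.278% passed as lower. The values rest on 2 to 6 counts per library in running HCR and 13 to 89 in running LCR.

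In sedentary rats Slc16a3 ranged from 0.601 through a median of 2.71 to 4.98 CPM in HCR, against 2.44 through 8.70 to 29.5 CPM in LCR, or 1 to 9 counts and 6 to 44 counts. The groups overlapped, with all 8 HCR libraries below the LCR mean and 3 of them below the lowest LCR library. The log2 fold change was -1.94 (SE 0.56), and its adjusted p of 0.0660 missed the threshold in edgeR. Averaged over runners and sedentary rats, Slc16a3 was 5.51-fold lower in HCR (log2 fold change -2.46, SE 0.45, adjusted p = 0.00146, edgeR). The group means ran in order from running LCR through sedentary LCR and running HCR to sedentary HCR, and none of these neighbours lay apart by more than the larger of their SDs.

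One library in each LCR group stood high, LCR running 3 at 50.5 CPM and LCR sedentary 3 at 29.5 CPM. Without LCR running 3 the log2 fold change in runners was -2.31 with an adjusted p of 0.172 (edgeR), and in 26 refits that each left out 1 library the call in runners held in 6. The adjusted p in runners ran from 0.00519 to 0.913 over 9 other settings, the highest with the line taken from the 2 conflicting titles. The averaged difference passed in all 26 refits (adjusted p from 0.000532 to 0.00508, edgeR), and in 7 of 8 other settings (adjusted p from 2.38e-06 to 0.0694), the exception being the titles' line. Slc16a3 overlaps Csnk1d in the RefSeq annotation, and whether the counting used strand is not given. Csnk1d, a casein kinase gene looked at after the values were seen, had 41.8 ± 9.48 CPM in running HCR, 39.0 ± 1.85 CPM in running LCR, 40.5 ± 4.95 CPM in sedentary HCR and 41.2 ± 4.88 CPM in sedentary LCR (SD, n = 5, 5, 8 and 8), and differed by 0.02 on the log2 scale between the lines on average (SE 0.08, adjusted p = 0.928, edgeR).

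Slc16a1 encodes MCT1, the carrier of oxidative fibres. It had 159, 181, 147, 178 and 165 CPM in running HCR, against 184, 156, 134, 184 and 213 CPM in running LCR. Sedentary libraries ranged from 130 through a median of 173 to 191 CPM in HCR and from 145 through 159 to 188 CPM in LCR. The groups overlapped in both states. Log2 fold changes of HCR over LCR were -0.07 in runners (SE 0.13, adjusted p = 0.938), -0.04 in sedentary rats (SE 0.10, adjusted p = 0.895) and -0.06 averaged (SE 0.08, adjusted p = 0.823), all by edgeR. Among the group means, from 163 to 174 CPM, no 2 neighbours in order differed by more than the larger of their SDs.

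Bsg encodes basigin, the chaperone that both transporters need. It had 225, 179, 255, 206 and 252 CPM in running HCR, against 263, 262, 306, 217 and 287 CPM in running LCR. All 5 running HCR libraries lay below the running LCR mean, and the groups overlapped. In sedentary rats it ranged from 182 through a median of 216 to 248 CPM in HCR, against 215 through 260 to 320 CPM in LCR, with all 8 HCR libraries below the LCR mean and 4 below the lowest LCR library. The log2 fold change in sedentary rats was -0.32 (SE 0.09, adjusted p = 0.0429, edgeR), 1.25-fold lower in HCR. Bsg was the 1 gene of the 5 to pass there, where 2.72% of all genes passed and 1.15% passed as lower. In runners the log2 fold change was -0.26 (SE 0.11) with an adjusted p of 0.490 by edgeR, and the averaged difference passed (-0.29, SE 0.07, adjusted p = 0.0170).

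The sedentary call for Bsg held in 12 of 26 refits without 1 library, with adjusted p-values up to 0.0938, and the averaged call in all 26, with adjusted p-values up to 0.0499 (edgeR). With the titles' line the adjusted p was 0.0616 in sedentary rats and 0.108 in the average, the highest of the other settings for Bsg, which began at 0.0236 and 0.00538. Bsg and Slc16a3 were thus the 2 of 5 genes that passed as lower in HCR in the average over activity, where 4 of the 5 lay below 0. Over all genes 1.72% passed as lower and 3.75% in either direction. The median log2 fold change over the 5 genes in that comparison was -0.19, beside 0.00 over all genes tested. In order of group means, running LCR (267 ± 33.7 CPM, n = 5) and sedentary LCR (260 ± 33.2, n = 8) were highest for Bsg, and sedentary LCR and running HCR (223 ± 32.0, n = 5) were the only neighbours apart by more than the larger SD. A RefSeq long noncoding RNA gene overlaps Bsg, and its reads could not be told apart without strand.

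**Figure D1:**
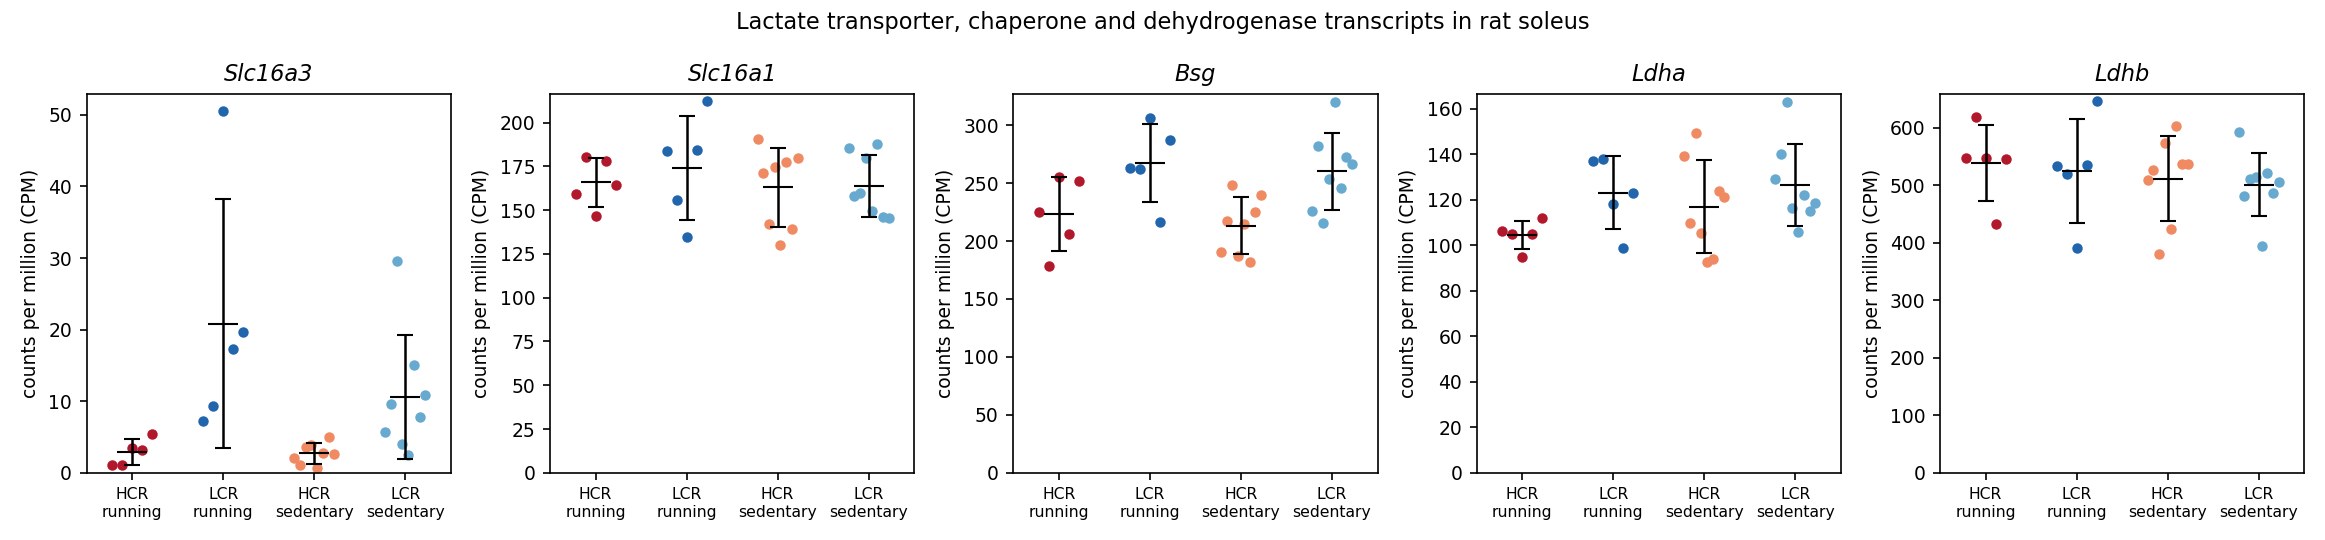
Levels of the 5 transcripts in CPM (vertical axes, from 0) in each library, with running HCR, running LCR, sedentary HCR and sedentary LCR from left to right; points are libraries, bars the group mean ± SD. Slc16a3 lies at 1.10 to 5.45 CPM in running HCR and 7.19 to 50.5 CPM in running LCR, while the Slc16a1 and Ldhb groups overlap throughout.

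Ldha encodes the M subunit of lactate dehydrogenase, prominent in glycolytic muscle. It had 106, 105, 94.8, 105 and 112 CPM in running HCR, against 137, 138, 118, 99.0 and 123 CPM in running LCR. All 5 HCR libraries lay below the LCR mean, and LCR running 4, at 99.0 CPM, made the groups overlap. Sedentary libraries ranged from 92.6 through a median of 115 to 149 CPM in HCR and from 106 through 120 to 163 CPM in LCR, with wide overlap. Log2 fold changes of HCR over LCR were -0.24 in runners (SE 0.12, adjusted p = 0.614), -0.15 in sedentary rats (SE 0.10, adjusted p = 0.461) and -0.19 averaged (SE 0.08, adjusted p = 0.188), so that none passed in edgeR. The averaged difference had an unadjusted p of 0.0183 in edgeR. The group means ran from 126 CPM in sedentary LCR to 104 CPM in running HCR, with running LCR and sedentary HCR between them, each neighbour within the larger SD. RefSeq lists 30 Ldha pseudogenes, none of which matched a gene of the count table, and how reads with several matches were counted is not given.

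Ldhb encodes the H subunit, prominent in oxidative muscle. It had 546, 618, 547, 433 and 546 CPM in running HCR, against 533, 519, 391, 535 and 646 CPM in running LCR. Sedentary libraries ranged from 381 through a median of 531 to 603 CPM in HCR and from 395 through 508 to 592 CPM in LCR. The groups overlapped almost fully in both states. The log2 fold changes of HCR over LCR were 0.03 in runners (SE 0.14, adjusted p = 0.982), 0.00 in sedentary rats (SE 0.11, adjusted p = 0.998) and 0.01 averaged (SE 0.09, adjusted p = 0.968), by edgeR. The group means, from 501 to 538 CPM, likewise lay within the larger SD of their neighbours.

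**Figure D2:**
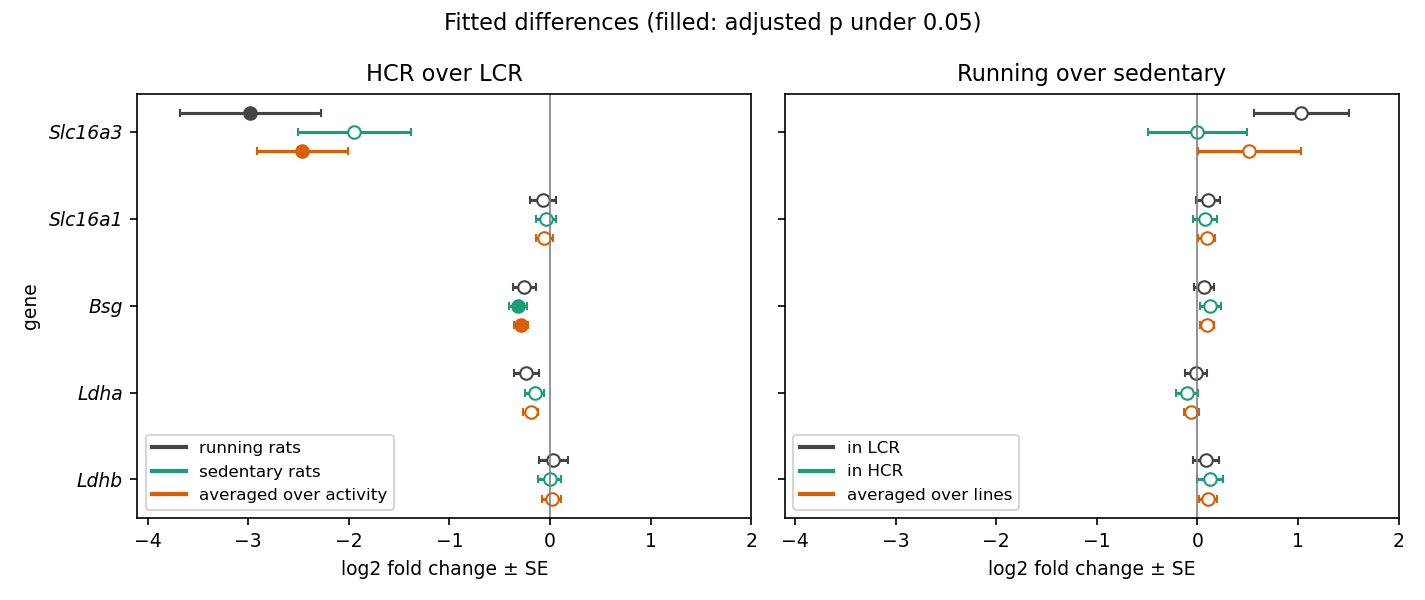
Fitted log2 fold changes ± SE (horizontal axis) of the 5 genes, for HCR over LCR on the left and running over sedentary on the right, with filled points where the adjusted p was under 0.05 (edgeR). Slc16a3 is at -2.98 in runners and -2.46 averaged and Bsg at -0.32 in sedentary rats and -0.29 averaged, all filled, and no point on the right is filled.

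The ratio of the transporters, Slc16a1 over Slc16a3 with 1 CPM added to each, was 76.4, 86.3, 33.5, 43.1 and 25.6 in running HCR, against 22.5, 15.1, 2.63, 10.1 and 10.4 in running LCR. Every running HCR library was above every running LCR library. The mean log2 ratio was 5.57 ± 0.75 in running HCR and 3.30 ± 1.17 in running LCR (SD, n = 5 each), a difference of 2.27 (4.82-fold, SE 0.62). An exact 2-sided permutation test gave p = 0.00794, the smallest its 252 regroupings allow, and 0.0317 after adjustment over 8 ratio comparisons. Sedentary ratios ranged from 23.5 through a median of 48.4 to 83.2 in HCR, against 5.26 through 15.9 to 43.8 in LCR. There the difference in log2 ratio was 1.45 (2.73-fold, SE 0.42, exact permutation p = 0.00420, adjusted 0.0317), although the groups overlapped.

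The ratio holds the same Slc16a3 values and is not independent of them. The sedentary difference passed in all 16 refits without 1 library, and the difference in runners in 4 of 10, where fewer regroupings also raise the smallest p. In runners it lost its call by exact permutation with medians in place of means (adjusted p = 0.190), with the titles' line (0.222) and without the 2 conflicting libraries (0.114), over a range of adjusted p from 0.0317 to 0.25.

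The ratio of the dehydrogenase subunits, Ldhb over Ldha, was 5.11, 5.85, 5.72, 4.11 and 4.85 in running HCR, against 3.86, 3.75, 3.29, 5.36 and 5.21 in running LCR. It ranged from 2.54 through a median of 4.47 to 6.37 in sedentary HCR and from 3.11 through 4.22 to 4.56 in sedentary LCR. The groups overlapped in both states, and the group means, 5.13 ± 0.706 in running HCR, 4.30 ± 0.932 in running LCR, 4.50 ± 1.14 in sedentary HCR and 3.98 ± 0.512 in sedentary LCR (SD, n = 5, 5, 8 and 8), fell within an SD of their neighbours in order. The difference of HCR from LCR in log2 ratio was 0.27 in runners (SE 0.17, exact permutation p = 0.143, adjusted 0.381) and 0.14 in sedentary rats (SE 0.16, exact permutation p = 0.383, adjusted 0.510). Neither passed.

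**Figure D3:**
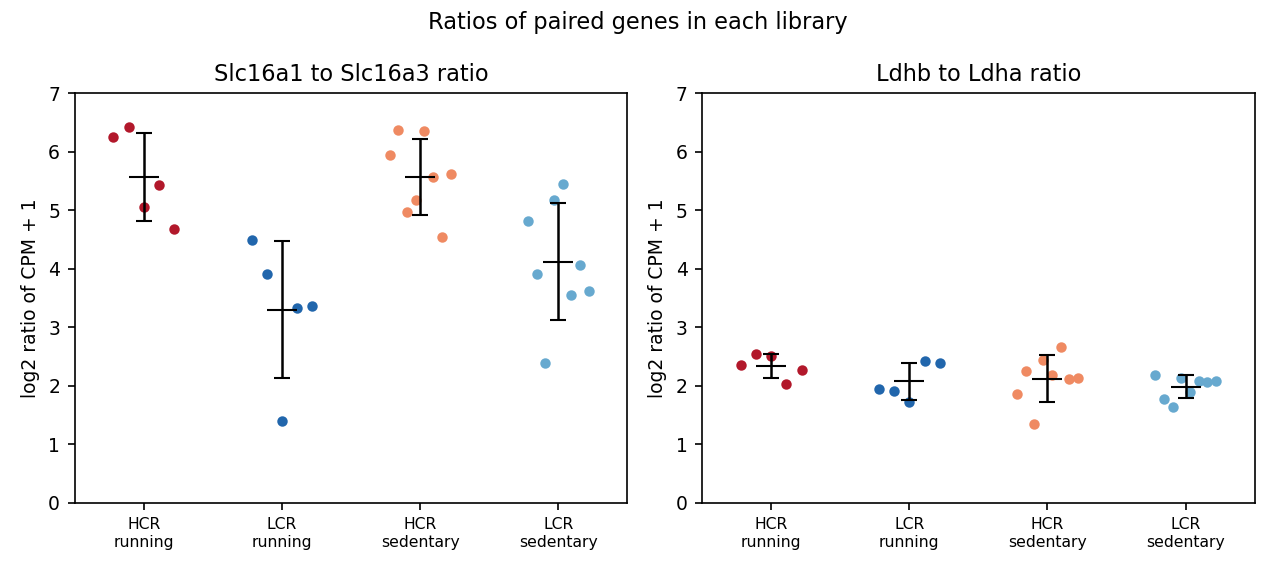
Log2 ratios of Slc16a1 to Slc16a3 (left) and Ldhb to Ldha (right), from CPM with 1 added, for each library in the order running HCR, running LCR, sedentary HCR and sedentary LCR, with the mean ± SD as bars. The transporter ratio averages 5.57 in both HCR groups, 3.30 in running LCR and 4.12 in sedentary LCR, and the subunit ratio lies between 1.98 and 2.35 in the 4 group means.

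Running rats were then compared with sedentary rats of the same line. In LCR, 0 of the 5 genes passed in edgeR, DESeq2 or voom, as 0% of all genes did in edgeR, where 612 genes had an unadjusted p under 0.05 and 2 passed in DESeq2. Slc16a3 had the largest difference of the 5, at 20.8 ± 17.4 CPM in running LCR and 10.6 ± 8.63 CPM in sedentary LCR (SD, n = 5 and 8). Its log2 fold change was 1.03 (SE 0.47) with an unadjusted p of 0.0385 and an adjusted p of 0.793 by edgeR, and it was 0.36 at its lowest in refits without 1 library. The other 4 genes lay between -0.02 and 0.11 on the log2 scale, with unadjusted p-values from 0.373 to 0.870 in edgeR.

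In HCR, too, 0 of the 5 genes passed in edgeR, DESeq2 or voom, and 0 had an unadjusted p under 0.05 in edgeR, where 0.0994% of all genes passed. Slc16a3 had 2.84 ± 1.82 CPM in running HCR and 2.70 ± 1.45 CPM in sedentary HCR (SD, n = 5 and 8), and its fitted log2 difference was 0.00 (SE 0.49, adjusted p = 1.00, edgeR). The other 4 ranged from -0.10 for Ldha (SE 0.11) to 0.13 for Bsg (SE 0.10). Averaged over the lines, 0.378% of all genes passed and 0 of the 5 did in edgeR, DESeq2 or voom, with log2 fold changes from -0.06 for Ldha to 0.52 for Slc16a3 (SE 0.51). The response of HCR to running minus that of LCR was -1.03 for Slc16a3 (SE 0.99, adjusted p = 0.917, edgeR), and 0% of all genes passed, with 592 at an unadjusted p under 0.05 and 0 in DESeq2 or voom. For neither ratio did running pass: the transporter ratio changed by -0.82 on the log2 scale in LCR (SE 0.63, exact permutation p = 0.204, adjusted 0.409), and the subunit ratio by 0.22 in HCR (SE 0.17, exact permutation p = 0.291, adjusted 0.465) and 0.09 in LCR (SE 0.16, exact permutation p = 0.510, adjusted 0.583).

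Fast fibre genes are given beside these values, as Slc16a3 is known from fast fibres. The type IIa myosin heavy chain Myh2 had 419 ± 145 CPM in running HCR, 2998 ± 1296 CPM in running LCR, 1467 ± 981 CPM in sedentary HCR and 3035 ± 1235 CPM in sedentary LCR (SD, n = 5, 5, 8 and 8). Its log2 fold change of HCR over LCR was -2.86 in runners (SE 0.59, adjusted p = 0.0207), -1.08 in sedentary rats (SE 0.44, adjusted p = 0.206) and -1.97 averaged (SE 0.36, adjusted p = 0.00197), by edgeR. Of 11 fast fibre genes in the table, 10 lay below 0 in runners (median log2 fold change -0.73, beside 0.00 over all genes). There 3 passed as lower, beside 0.278% of all genes: Tnni2 (-2.51), Tnnt3 (-1.98) and Myh2. Tnnc2 also passed in the average (-0.79), where 1.72% of all genes passed as lower. With the titles' line all of these calls were lost, the log2 fold changes in runners being -0.67 for Myh2, -0.76 for Tnni2 and -0.81 for Tnnt3 (edgeR). In runners the calls of Myh2 and Tnni2 were also lost without the 2 conflicting libraries, that of Myh2 with the replicate block and that of Tnnt3 with the 2 running groups alone, and the call of Myh2 held in 23 of 26 refits without 1 library. The myosins of the faster IIx and IIb fibres, Myh1 and Myh4, named after their values were seen, did not pass. Myh1 had 199 ± 79.7 CPM in running HCR and 331 ± 454 CPM in running LCR (log2 fold change -0.73, SE 0.76, adjusted p = 0.853, edgeR), and Myh4, the 1 gene of the list above 0, had 87.3 ± 124 CPM in running HCR and 44.9 ± 40.4 CPM in running LCR (0.96, SE 0.77, adjusted p = 0.798; SD, n = 5 each). In sedentary rats 9 of 11 lay below 0 and 0 passed in edgeR.

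The summed level of the fast fibre genes was 4653 to 7739 CPM in running HCR, 8887 to 15818 CPM in running LCR, 5030 to 13149 CPM in sedentary HCR and 10028 to 15216 CPM in sedentary LCR. Runners did not overlap, and sedentary groups did. Slow fibre genes, with sums of 40818 to 47693 CPM in running HCR, 38438 to 45441 in running LCR, 31593 to 48467 in sedentary HCR and 36961 to 45182 in sedentary LCR, overlapped, with 0 of 11 passing between the lines in edgeR. The slow myosin heavy chain Myh7 had 11138 ± 786 CPM in running HCR, 10727 ± 593 in running LCR, 10245 ± 1544 in sedentary HCR and 11249 ± 866 in sedentary LCR (SD). The part of fast fibre content in the lower Slc16a3 of HCR was not tested, and in whole muscle fewer fibres of a type and less RNA per fibre cannot be told apart.

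Within groups, levels of 10 pairs of the 5 genes, and of each gene with Myh2 and Myh7, were compared over the 26 libraries as deviations of log2 CPM from the group mean, 20 relations in all. Slc16a3 rose and fell with Myh2 (Pearson r = 0.50, permutation p = 0.00718, adjusted 0.0359; Spearman rho = 0.50, permutation p = 0.00901, adjusted 0.0745). The r was 0.50 in 16 sedentary and 0.55 in 10 running libraries, and 0.39 without the 2 libraries farthest from the median in Slc16a3, LCR sedentary 3 and LCR sedentary 5. With Bsg, its chaperone, Slc16a3 had an r of 0.18 (permutation p = 0.421, adjusted 0.648; rho = 0.31, permutation p = 0.164, adjusted 0.364), at 0.67 in runners and -0.37 in sedentary libraries. With Ldha it had 0.46 (permutation p = 0.0296, adjusted 0.118; rho = 0.39, permutation p = 0.0606, adjusted 0.242), which was 0.19 without LCR sedentary 3 and LCR sedentary 5. That r was 0.68 in sedentary and 0.03 in running libraries. In HCR libraries Slc16a3 rests on 1 to 9 counts, so its deviations there are imprecise.

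Slc16a1 and Ldhb, the transporter and the subunit of oxidative fibres, had the closest relation among the members (r = 0.76, permutation p = 5.00e-05, adjusted 0.00100; rho = 0.70, permutation p = 0.000310, adjusted 0.00620). It was 0.78 in sedentary and 0.74 in running libraries, and 0.67 without LCR running 3 and HCR sedentary 3. Both also went with Myh7: Ldhb with r = 0.68 (permutation p = 0.000540, adjusted 0.00540; rho = 0.50, adjusted 0.0820) and Slc16a1 with r = 0.55 (permutation p = 0.00156, adjusted 0.0104; rho = 0.49, adjusted 0.0745). For Ldhb and Myh7 the relation was 0.86 in sedentary and 0.19 in running libraries. Without the 2 farthest libraries it was 0.41 for Ldhb and 0.46 for Slc16a1. All values share the depth and composition of their library, and the other 16 relations did not pass by r.

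**Figure D4:**
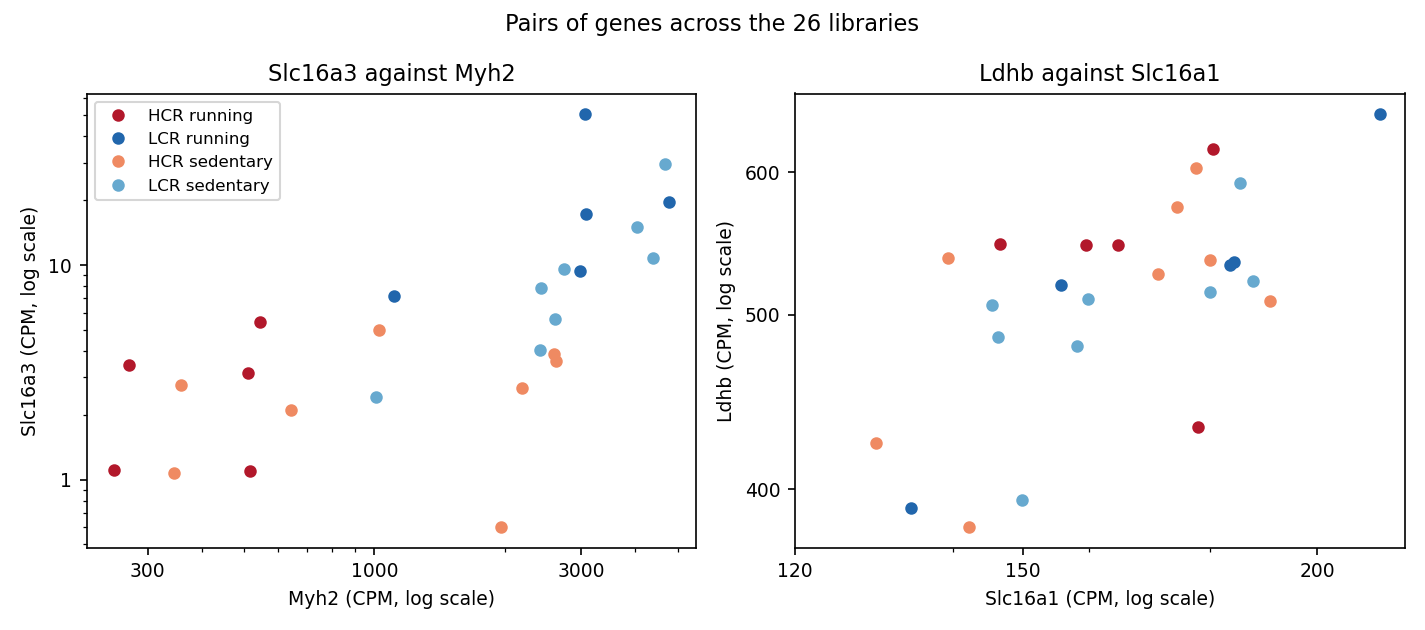
Slc16a3 against Myh2 (left) and Ldhb against Slc16a1 (right) in the 26 libraries, both axes in CPM on log scales, coloured by group. Running HCR libraries lie at the low end for both Slc16a3 and Myh2, and the 4 groups mix along the line of Ldhb with Slc16a1.

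The genes whose within-group pattern was most like each member, among 9619 genes over 26 libraries, are given as a description. For Ldhb they were Lpl, lipoprotein lipase (r = 0.92), Etfa, a subunit of electron transfer flavoprotein (0.91), Cox8b of cytochrome oxidase (0.89) and the peroxiredoxin Prdx5 (0.88). For Slc16a1 they were Fkbp3 (0.87), the UDP-glucose enzyme Ugp2 (0.82), the Z-disc gene Myot (0.81), the ADP/ATP carrier Slc25a4 (0.80) and Cox6a2 (0.80). For Slc16a3 the r was lower, at 0.73 for the mitochondrial ribosome gene Mrps11, 0.72 for Sema6c, 0.67 for Atp2a1, the calcium pump of fast fibres, 0.67 for Usp36 and 0.65 for Ganc. Bsg was most like Lrrfip2 (0.74), Chd4 (0.72), Lrp11 (0.71), Gramd1b (0.69) and Nomo1 (0.69), and Ldha most like Hdac7 (0.80), Ralgapa2 (0.74), Akr1e2 (0.69), Prxl2c (0.67) and Magt1 (0.64). Taken as the highest of 9619 genes, these r values are high by selection. Some also differed by state: Magt1 with Ldha had 0.83 in sedentary and 0.21 in running libraries, and Lrrfip2 with Bsg 0.49 and 0.92. Of these neighbours named here, Ganc was the 1 that passed between the lines in the average (log2 fold change -0.38, adjusted p = 0.0125, edgeR).

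Other carriers and chaperones of the family were sparse: 6 of 16 listed genes had enough counts to test. In the line average 1 passed as higher and 1 as lower, beside 3.75% of all genes in either direction. In the other comparisons 0 passed in edgeR. Slc16a7, which encodes MCT2, a high-affinity carrier, had 47.4 ± 11.4 CPM in running HCR, 24.5 ± 7.57 CPM in running LCR, 44.0 ± 15.8 CPM in sedentary HCR and 36.0 ± 11.5 CPM in sedentary LCR (SD, n = 5, 5, 8 and 8). It was higher in HCR in the average (log2 fold change 0.60, SE 0.17, adjusted p = 0.0442, edgeR), a call that held in 7 of 26 refits without 1 library and 3 of 8 other settings. Slc16a6, the carrier MCT7, had 32.7 ± 6.24 CPM in running HCR, 51.6 ± 13.4 in running LCR, 41.0 ± 7.74 in sedentary HCR and 50.3 ± 8.52 in sedentary LCR. It was lower in HCR in the average (-0.49, SE 0.11, adjusted p = 0.00654, edgeR). That call held in all 26 refits and in 7 of 8 settings, the exception being the titles' line. Emb, embigin, a chaperone related to basigin, had 35.7 ± 16.2 CPM in running HCR, 23.3 ± 27.5 in running LCR, 67.3 ± 45.5 in sedentary HCR and 24.1 ± 21.8 in sedentary LCR, and its log2 fold change in the average was 0.98 (SE 0.48, adjusted p = 0.330, edgeR). Ldhd, the D-lactate dehydrogenase and the 1 of 4 other family members with enough counts, had 26.1 ± 3.11 CPM in running HCR, 17.0 ± 5.78 in running LCR, 17.4 ± 3.72 in sedentary HCR and 16.6 ± 3.51 in sedentary LCR, and its log2 fold change in the average was 0.32 (SE 0.13, adjusted p = 0.213, edgeR).

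Of 14 genes for pyruvate entry into mitochondria and pyruvate dehydrogenase, Pdhx was the 1 that passed between the lines. Over all genes 0.626% passed in runners, 2.72% in sedentary rats and 3.75% in the average. Pdhx encodes the protein that ties dihydrolipoamide dehydrogenase into the pyruvate dehydrogenase complex. It had 82.2 ± 16.7 CPM in running HCR and 120 ± 14.7 CPM in running LCR (SD, n = 5 each), and 77.8 ± 12.1 CPM in sedentary HCR and 107 ± 7.03 CPM in sedentary LCR (n = 8 each). It fell by 0.54 on the log2 scale in running HCR relative to running LCR (SE 0.12, adjusted p = 0.0234), by 0.49 in sedentary HCR (SE 0.10, adjusted p = 0.00261) and by 0.52 in the average (SE 0.08, adjusted p = 5.06e-05), by edgeR. The sedentary call held in all 9 other settings and 26 refits, and the call in runners in 6 of 9 settings and 20 refits. The averaged call was lost with the titles' line. The pyruvate carrier subunit Mpc1 lay within 0.05 of 0 on the log2 scale in both line comparisons. Pdk4, the kinase that turns the complex off, had 106 ± 49.3 CPM in running HCR, 41.7 ± 40.6 in running LCR, 44.9 ± 11.3 in sedentary HCR and 51.0 ± 29.3 in sedentary LCR. Its log2 fold change of 1.36 in runners had an SE of 0.52 and an adjusted p of 0.370 (edgeR).

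Among 12 tested genes of glycolysis, which makes the pyruvate that lactate dehydrogenase reduces, 1 passed as lower in sedentary HCR, 1 as higher with running in HCR and 2 as higher with running averaged over the lines. Over all genes 1.15% passed as lower between sedentary lines. With running, 0.0994% passed in either direction in HCR and 0.378% in the average. Eno3, muscle enolase, had 627 ± 76.7 CPM in running HCR, 642 ± 59.2 CPM in running LCR, 440 ± 55.7 CPM in sedentary HCR and 581 ± 97.3 CPM in sedentary LCR (SD, n = 5, 5, 8 and 8). Its log2 fold change was -0.44 between the sedentary lines (SE 0.10, adjusted p = 0.0146), 0.56 with running in HCR (SE 0.12, adjusted p = 0.0318) and 0.36 with running averaged over the lines (SE 0.08, adjusted p = 0.0425), by edgeR. Aldoc, aldolase C, was at 9.27 ± 6.14 CPM in running HCR, 5.33 ± 1.43 in running LCR, 4.70 ± 3.20 in sedentary HCR and 1.96 ± 0.854 in sedentary LCR. Its log2 fold change with running, averaged over the lines, was 1.25 (SE 0.29, adjusted p = 0.0425, edgeR). That call held in 6 of 26 refits without 1 library and was lost with the replicate block. The averaged call of Eno3 held in 5 refits and in 5 of 8 other settings, being lost with upper-quartile factors, with the replicate block and without the 2 conflicting libraries. Its call with running in HCR held in 18 refits and in 7 of 9 settings (adjusted p up to 0.265, edgeR), the block and the 2 conflicting libraries again being the exceptions, and its sedentary line call held in all of them. Of 7 other pyruvate enzymes, 9 genes of the cytosolic NADH shuttles and 6 metabolic markers of glycolytic fibres, 0 passed in any comparison in edgeR.

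Of 10 tested regulators tied to lactate metabolism, Ppargc1b, a coactivator related to PGC-1 alpha, was the 1 that passed, between sedentary lines, where 2.72% of all genes passed. Ppargc1b had 96.0 ± 10.6 CPM in sedentary HCR and 129 ± 18.1 CPM in sedentary LCR (SD, n = 8 each, log2 fold change -0.46, SE 0.10, adjusted p = 0.00466, edgeR). In runners it had 107 ± 14.2 CPM in HCR and 108 ± 9.82 CPM in LCR (SD, n = 5 each; log2 fold change -0.01, SE 0.13, adjusted p = 0.996), and it did not pass in the average (-0.24, SE 0.08, adjusted p = 0.0928, edgeR). Ppargc1a, which encodes PGC-1 alpha and raises MCT1 in muscle when overexpressed, had 45.9 ± 4.89 CPM in running HCR, 54.4 ± 16.1 CPM in running LCR, 39.4 ± 8.53 CPM in sedentary HCR and 34.0 ± 4.62 CPM in sedentary LCR. Its log2 fold change with running averaged over the lines was 0.48 (SE 0.12, adjusted p = 0.0569, edgeR). Hif1a, the hypoxia regulator under which Slc16a3 and Ldha are induced in other cells, had log2 fold changes of -0.13 in both line comparisons (SE 0.17 in runners and 0.13 in sedentary rats, adjusted p = 0.891 and 0.675, edgeR).

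Markers of other cells that soleus holds were summed in lists for endothelium, pericytes, macrophages, adipocytes, red cells, Schwann cells and fibro-adipogenic cells. The sums overlapped between HCR and LCR in both states, which does not show like cell content. Des made up most of the pericyte sums (group means of 2201 to 2366 CPM beside median sums of 2434 to 2630). Lpl made up most of the adipocyte sums (425 to 577 beside 630 to 852). Between sedentary lines all 5 adipocyte, 7 macrophage and 6 fibro-adipogenic genes tested lay above 0, and 0 passed in edgeR. Their medians on the log2 scale were 0.61, 0.22 and 0.19. In runners 4 of 5, 6 of 7 and 1 of 6 lay above 0. Of 8 endothelial genes tested, 5 lay above 0 in the line average, with a median log2 fold change of 0.09. Over all genes 1.72% passed as lower there. Vwf, the 1 endothelial gene that passed, went against that lean and was lower in HCR (log2 fold change -0.51, SE 0.14, adjusted p = 0.0294, edgeR). That call was lost when the 2 conflicting libraries took the line of their title or were left out (adjusted p up to 0.289, edgeR), and it held in 22 of 26 refits without 1 library. The part of Vwf in the lower Slc16a3 and Bsg was not tested.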

How the data were processed

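Per the labels' protocols, single-end libraries came from an oligo(dT)-primed 3' kit. The values deposited by the authors are unnormalised counts of reads for each gene. STAR, featureCounts, cutadapt, UMI-tools and the build mRatBN7.2 are named in the submitters' processing notes. Versions, strand use and collapsing of molecular identifiers are not given in the sources used here, so counting precision may be lower than the totals imply.

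Groups follow the description and genotype. No same-group pair of libraries agreed within sampling noise (chi-square per degree of freedom at least 2.09). Same-numbered libraries did not pair (deviations correlated from -0.22 to 0.26). Whether animals share litters is not stated.

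Counts were fitted with edgeR 4.0.16 (R 4.3.3; robust quasi-likelihood F test, TMM, filterByExpr by group, Benjamini-Hochberg adjustment at 0.05), all 26 libraries in 1 fit with no covariate over 10064 genes (biological coefficient of variation 0.156). SE is the absolute log2 fold change over the square root of F. Alternatives used DESeq2 1.42.0, limma 3.58.1 voom, upper-quartile factors, no mitochondrial mRNAs, no filter, 2 groups only, the conflicting libraries under their title's line or left out, a replicate block, and each library left out. CPM divides by the total count. Ratios used 1 CPM added and exact permutation tests. Correlations used log2 CPM with a prior count of 2 and 100000 permutations within groups. The fit was tested on simulated counts. Promoters came from RefSeq.

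The members, the 18 gene lists and the rule for named genes were chosen with earlier results of these data known. The rule names the 5 members, up to 4 listed genes past the threshold per list and comparison, 8 fixed pathway genes (Mpc1, Pdk4, Ppargc1a, Hif1a, Slc16a7, Emb, Myh2 and Myh7), the 5 genes most like each member (average log2 CPM from 2 up), and Ackr4; 2 of the genes it names are not reported here. Refits of the listed genes, the check of 50 line genes and Csnk1d were added after the data were seen.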

Additional observations from a re-analysis of the deposited data

Results flagged for a closer look

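LCR running 3 had 50.5 CPM of Slc16a3, and the next highest of the 5 running LCR libraries had 19.6 CPM, so that the gap took 0.713 of the range, where 0.710 marks an outlying library by Dixon's test. LCR sedentary 3 had 29.5 CPM of Slc16a3, and the next of the 8 sedentary LCR libraries 15.0 CPM, a gap of 0.536 of the range against 0.526. Of 28 sets, the 4 groups in each of the 5 genes and 2 ratios, checked this way, these 2 passed, and chance passes about 1 in 20.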

How the results depend on the processing

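In runners 1 of the 5 genes passed, and 0 did with no filter on low counts, with only the 2 groups in the fit, with the titles' line for the 2 conflicting libraries, without those libraries, and with voom. In sedentary rats 1 passed, 2 did in DESeq2 and with the replicate number as a block, where Slc16a3 joined Bsg, and 0 did with the titles' line. In the average 2 passed, and 0 did with the titles' line. Without 1 library the counts were 0 to 1, 0 to 2 and 2 to 2. The cause was not tested.

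Called members kept their direction in all settings run. Signs turned only where the reported value was near 0 or far from the threshold (log2 scale). With the titles' line Slc16a1 was 0.099 between running lines, 0.029 in the average and 0.14 in the difference of responses, and Slc16a3 was 0.99 for running in HCR and 0.14 in the difference of responses. Without the 2 conflicting libraries Slc16a1 was 0.016 between running lines, -0.012 for running in LCR and 0.057 in the difference of responses, and Ldhb -0.037 for running in LCR. Ldhb between sedentary lines was 0.010 with upper-quartile factors and 0.0017 with 2 groups. Slc16a1 in the difference of responses was 0.032 with voom, and Slc16a3 for running in HCR 0.0016 with no filter.

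Among the ratios, the transporter difference between running lines lost its call with medians (2.06), the titles' line (1.75), without the 2 libraries (2.51) and with the replicate block (2.27, where 5 pairs allow no smaller p). For running in HCR it was -0.010 with 0.25 CPM added, -0.17 with medians, -0.26 with the titles' line and -0.19 with the block. The subunit ratio for running in LCR was -0.13 with medians. The r of Slc16a3 with Bsg was -0.37 in sedentary libraries alone.

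Without 1 library, Slc16a1 ran from -0.15 to 0.044 between running lines, -0.085 to 0.0080 between sedentary lines, -0.012 to 0.19 for running in LCR and -0.11 to 0.092 in the difference of responses. Ldhb ran from -0.061 to 0.16, -0.067 to 0.068, -0.038 to 0.18 and -0.058 to 0.16 in these comparisons, and -0.031 to 0.073 in the line average. Ldha for running in LCR ran from -0.072 to 0.049, Slc16a3 for running in HCR from -0.35 to 0.27 and Bsg in the difference of responses from -0.015 to 0.15. The transporter ratio ran from 1.79 to 2.57 between running lines and -0.21 to 0.22 for running in HCR.

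The replicate numbers are no pairing in the labels, and in 3 of 23 pairs did a library correlate best with its own number in the other group. With the block Slc16a3 for running in HCR was 0.29, and the line calls of the members in the average were the same 2 genes. In the fit of sedentary groups alone Slc16a3 had too few counts to enter. Over all genes and the other settings, the calls between running lines ran from 0 with the titles' line to 92 in DESeq2 (63 reported). For running in HCR they ran from 10 to 79 (10 reported), in the line average from 137 to 418 (377) and in the running average from 19 to 80 (38). Refits without 1 library gave 32 to 67, 4 to 38, 315 to 403 and 9 to 63 in these comparisons. At this depth Slc16a3 in HCR rests on 1 to 9 counts a library, which limits its precision.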
